A study of Mus musculus with 34 samples.

Results

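The solute carrier (SLC) genes are the large group of genes for membrane proteins that move nutrients, ions, metals, nucleosides and metabolites across the cell surface and the membranes of organelles. They were taken here as the genes on the Affymetrix MOE430A array with 1 platform symbol of the form Slc, a family number and the letter a or o. The 8 genes Slc2a1, Slc2a3, Slc7a3, Slc7a5, Slc16a1, Slc16a3, Slc22a18 and Slc38a4 were left out, and each gene was represented by its brightest probe set. This gave 238 genes of the 12394 with 1 symbol on the array, in 49 numbered families, measured by 378 probe sets. The brightest probe set of 154 of them, 64.7%, was above the median of its array on 2 or more of the 17 arrays and was tested, as were 62.6% of the 22690 probe sets of the array. The other 84 were too dim to be tested. The rule used no measured difference between groups.

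The lines C2 and D4 are pluripotent embryonic stem (ES) cells taken from blastocysts of C57BL/6 mice, a kind of cell that can enter a chimeric embryo and become germ cells. Early-passage cells of each line had low chimerism without germline transmission per the labels. Late-passage cells had high chimerism with germline transmission and came in 2 kinds, attached and detached. There were 3 RNAs per line and state, but 2 for detached D4. Early-passage cells grew in DMEM with 15% fetal bovine serum and late-passage cells in Thromb-XTX-WES. Both media held LIF, pyruvate, non-essential amino acids, beta-mercaptoethanol and glutamine, and all cells were kept at 5% CO2 and 37 C on mouse embryonic fibroblast feeders. Before RNA extraction all cultures went through light trypsin treatment, meant to leave the feeders on the dish, and the loosened cells spent 1 h on a new plate. The labels give an estimated purity of about 90% for each group, or above 90% for early D4, and name the fibroblasts as the contaminating cells. Passage, medium and chimerism changed together and cannot be told apart. Each line is 1 derivation, and the labels do not say to what attached and detached refer, or whether replicate RNAs are separate cultures. The p-values therefore rest on a spread between RNAs that could be technical only.

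SLC carriers fall into families by sequence. Some are uniporters that let a solute run down its gradient, and others are exchangers or cotransporters that couple it to another solute or ion. In ES cells they supply amino acids, nucleosides, sugars, carnitine and metals to cells that divide fast, and the family 25 carriers link the cytosol with the mitochondrial matrix. The symbol rule also took in 3 genes for proteins that carry no solute. Slc9a3r1 and Slc9a3r2 encode PDZ scaffolds that hold transporters at the membrane, and Slc4a1ap was named for an adaptor of an anion exchanger.

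The deposited values are MAS5 signal intensities, and all levels and differences below are on the scale log2(signal + 16), which understates the change of dim genes. Differences were tested with limma over all 14160 tested probe sets, and "called" means a Benjamini-Hochberg adjusted p under 0.05 over all of them. The median signal per array was 529 to 817. ES cell markers were present in every RNA, with a summed signal of their 10 genes of 183030 to 262238. The array of C2 attached replicate 1 stood apart by its 5th percentile of signal, 109 against at most 37.6 elsewhere, and that of D4 attached replicate 3 by a 3' to 5' ratio of Actb of 1.84 against at most 1.21. The file header of the latter array also names a protocol other than that of all other MOE430A arrays. Transcripts of the feeder fibroblast list, 22 tested genes of 26 on the array, differed between the states. Their summed signal was 91925 to 266791 in early, 65589 to 95377 in attached and 38074 to 52863 in detached cells. Fewer fibroblasts and less of these transcripts per cell cannot be told apart in such bulk RNA, which was taken after the light trypsin step and the 1 h on a new plate.

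The share of solute carriers called between late and early passage was close to that of all tested probe sets. Of the 154 tested genes, 4 were called in late minus early, which averages both late states and both lines. Late-passage cells had more transcripts of Slc29a1, the equilibrative nucleoside transporter ENT1, of Slc7a7, the y+LAT1 exchanger of cationic and neutral amino acids, and of the scaffold gene Slc9a3r1. They had fewer transcripts of Slc12a4, which encodes the potassium-chloride cotransporter KCC1. This share, 2.6%, was close to the 3.38% called among all tested probe sets. An unadjusted p under 0.05 was reached by 14 of the 154 SLC genes and by 2545 of all 14160 tested probe sets. The late minus early differences of the SLC genes ran from -0.78 to 1.13 with a median of -0.089, and the median of all tested probe sets was -0.0098. The SLC median was 0.14 with the mean level of the feeder list as a covariate, so its sign turned, while that of all probe sets was -0.012. It was -0.042 with the mean of a gene's probe sets, -0.048 over all 238 genes without a filter and -0.040 after quantile normalization, where the median of all probe sets was 0.017. In the fits without 1 RNA it ran from -0.129 without D4 early replicate 3 to -0.044 without D4 early replicate 1. It was -0.051 without C2 early replicate 3 and -0.056 without D4 attached replicate 1. With a pseudocount of 1 it was -0.090, with one of 64 -0.084, and without both arrays that stood apart -0.091.

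The promoters of the called genes are shown because these are the members that differed between the 2 passages. They are 300 bases from RefSeq (GRCm38.p6) that begin upstream of the first listed transcription start and end just after it, 5′ to 3′ on the gene's strand. Capitals mark matches, on either strand, to the GC box with the letters GGGCGG and to the CCAAT box, searched as those 5 letters. Also searched on both strands were the TATA box as TATAAA, the E-box as CACGTG and the AP-1 motif as TGANTCA, which had no match in these 4 windows. The windows are chr17:45599569-45599868 (minus strand) for Slc29a1, chr14:54417895-54418194 (minus strand) for Slc7a7, chr11:115163091-115163390 (plus strand) for Slc9a3r1 and chr8:105966066-105966365 (minus strand) for Slc12a4. Slc29a1 has 8 listed starts and Slc7a7 has 5, and the other genes have 1 each.
Slc29a1: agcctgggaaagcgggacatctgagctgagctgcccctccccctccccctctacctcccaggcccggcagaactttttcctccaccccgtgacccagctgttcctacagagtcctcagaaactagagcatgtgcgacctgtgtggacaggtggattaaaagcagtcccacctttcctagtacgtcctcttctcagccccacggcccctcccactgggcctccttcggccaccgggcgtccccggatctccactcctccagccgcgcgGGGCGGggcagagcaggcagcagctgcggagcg
Slc7a7: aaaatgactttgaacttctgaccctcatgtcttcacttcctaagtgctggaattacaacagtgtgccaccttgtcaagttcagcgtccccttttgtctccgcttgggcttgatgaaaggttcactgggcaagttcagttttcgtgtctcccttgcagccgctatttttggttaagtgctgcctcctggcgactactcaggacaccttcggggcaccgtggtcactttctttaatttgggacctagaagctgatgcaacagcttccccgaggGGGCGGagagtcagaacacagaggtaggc
Slc9a3r1: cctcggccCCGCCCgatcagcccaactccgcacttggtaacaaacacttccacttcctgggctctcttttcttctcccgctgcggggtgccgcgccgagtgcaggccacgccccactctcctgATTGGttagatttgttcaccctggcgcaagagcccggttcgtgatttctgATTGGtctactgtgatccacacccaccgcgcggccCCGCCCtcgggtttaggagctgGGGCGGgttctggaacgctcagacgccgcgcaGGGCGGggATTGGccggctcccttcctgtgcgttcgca
Slc12a4: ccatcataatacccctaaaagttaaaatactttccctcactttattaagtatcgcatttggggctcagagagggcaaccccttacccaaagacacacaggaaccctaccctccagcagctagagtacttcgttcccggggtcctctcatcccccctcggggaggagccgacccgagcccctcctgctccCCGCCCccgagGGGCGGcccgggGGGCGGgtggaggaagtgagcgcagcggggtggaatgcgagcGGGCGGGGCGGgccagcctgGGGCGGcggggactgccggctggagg

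The GC box occurred 1 time each in the windows of Slc29a1 and Slc7a7, 4 times in that of Slc9a3r1 and 6 times in that of Slc12a4, where 2 of the matches overlap. The CCAAT box occurred 3 times for Slc9a3r1. A window with at least 1 GC box was found for 114 of the 186 SLC genes with an entry in the promoter table, 61.3%, for 57.5% of the 9888 array genes with an entry and for 35.9% of all 27025 entries. For the CCAAT box the shares were 36.6%, 38.1% and 37.9%. For the other motifs the shares among the SLC genes, the array genes and all entries were 10.2%, 10.1% and 14.2% for the TATA box, 11.3%, 9.32% and 7.24% for the E-box, and 8.6%, 6.27% and 7.93% for the AP-1 motif. The window of Slc7a7 had the lowest G and C content of the 4, at 51%, and the others had 64.3% to 65%, where the median of the SLC genes was 59.3%. These matches describe the letters of the windows and say nothing of binding.

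Slc29a1 imports and exports nucleosides along their gradient and so feeds nucleotide salvage. In C2 its level was 12.55, 12.78 and 12.09 in the 3 early RNAs. It was 12.55, 13.38 and 13.45 in attached and 13.23, 13.46 and 13.77 in detached cells. In D4 its lowest early level was 12 and the other early RNAs had 12.41 and 12.39. It was 13.42, 12.65 and 12.88 in attached and 13.58 and 13.50 in detached D4 cells. All 5 detached RNAs lay above all 6 early RNAs, and of the attached RNAs C2 replicate 1 and D4 replicate 2 lay within the range of early passage. Late minus early was 0.91 (SE 0.174, limma adjusted p = 0.0118), a 1.88-fold higher level, with 0.83 in C2 and 0.99 in D4. Neither line alone passed the test (adjusted p = 0.185 and 0.0761). The difference was 1.14 for detached minus early (SE 0.209, adjusted p = 0.00655) and 0.68 for attached minus early (SE 0.197, adjusted p = 0.194). Both Slc29a1 calls were also made in each of the 17 fits that left out 1 RNA. The other tested nucleoside carriers, of families 28 and 29, were not called.

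Slc7a7 forms a heterodimer with the heavy chain Slc3a2 and exchanges arginine and lysine for neutral amino acids. In C2 its level was 10.76, 12.51 and 10.76 in early, 11.62, 11.96 and 11.97 in attached and 11.97, 12.24 and 12.23 in detached cells. In D4 it was 10.50, 10.55 and 10.29 in early, 12.07, 11.18 and 12.15 in attached and 12.30 and 12.26 in detached cells. Early C2 replicate 2 had the highest level of all 17 RNAs, and each of the other 5 early RNAs lay below every late RNA. That early RNA also had the lowest summed signal of the feeder list among the early RNAs, 91925, and its part in this level was not tested. Late minus early was 1.13 (SE 0.239, adjusted p = 0.0202), a 2.18-fold higher level. Detached minus early was 1.32 (SE 0.287, adjusted p = 0.0188). In D4 alone it rose by 1.59 (SE 0.344, adjusted p = 0.0429), a call lost in 12 of the 17 fits without 1 RNA (adjusted p up to 0.209), with no filter, with the replicate block and without both arrays that stood apart, while the C2 difference was 0.66 (SE 0.331, adjusted p = 0.52). The lines' difference in this change, 0.94 (SE 0.478, adjusted p = 0.643), did not pass the test. A second Slc7a7 probe set, on the companion array MOE430B, gave a late minus early difference of 0.56 (adjusted p = 0.391). On that array 4 of the early RNAs and none of the late RNAs were from a second chip lot. The Slc7a7 call in late minus early was lost without C2 early replicate 1, without C2 early replicate 3 and without D4 early replicate 1, and that in detached minus early without either of the D4 detached RNAs.

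Slc9a3r1, the scaffold also known as NHERF1, had a smaller but less variable difference. Its C2 levels were 12.23, 11.86 and 12.38 in early, 12.73, 12.98 and 12.93 in attached and 12.56, 12.66 and 12.80 in detached cells. Its D4 levels were 11.85, 12.01 and 12.06 in early, 12.55, 12.51 and 12.70 in attached and 12.25 and 12.31 in detached cells. Within each line every late RNA lay above every early RNA. Late minus early was 0.54 (SE 0.104, adjusted p = 0.0119), a 1.45-fold higher level, and was called in each of the 17 fits without 1 RNA. Its other 2 probe sets gave 0.29 (adjusted p = 0.248) and 0.28 (adjusted p = 0.141). It was also the SLC gene called in attached minus early, at 0.67 (SE 0.117, adjusted p = 0.0462), a call lost in 15 of the 17 fits without 1 RNA and with the mean of its probe sets, at 0.40. That call was also lost with no filter, with the replicate block and without both arrays that stood apart.

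Slc12a4 lets potassium and chloride leave the cell together and takes part in the control of cell volume. In C2 its level was 10.23, 10.51 and 10.82 in early, 9.85, 10.18 and 9.65 in attached and 10.09, 9.83 and 9.74 in detached cells. In D4 it was 11.22, 10.53 and 10.23 in early, 9.82, 9.94 and 10.20 in attached and 9.82 and 9.90 in detached cells. All 11 late RNAs lay below all 6 early RNAs, with a gap from 10.20 to 10.23. No other tested SLC gene had late and early RNAs that did not overlap, which makes 0.649% of the 154, and the share among all tested probe sets was 0.621%. Late minus early was -0.68 (SE 0.155, adjusted p = 0.028), a 1.6-fold lower level, and detached minus early was -0.72 (SE 0.186, adjusted p = 0.0436). The first call was lost in 5 and the second in 11 of the 17 fits without 1 RNA. Both were also lost with no filter. The second was lost as well with quantile normalization, with the replicate block and with fluidics run as a fixed block. The summed signal of the feeder list was also lower in most late RNAs, and its part in the Slc12a4 difference was not tested.

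**Figure D1:**
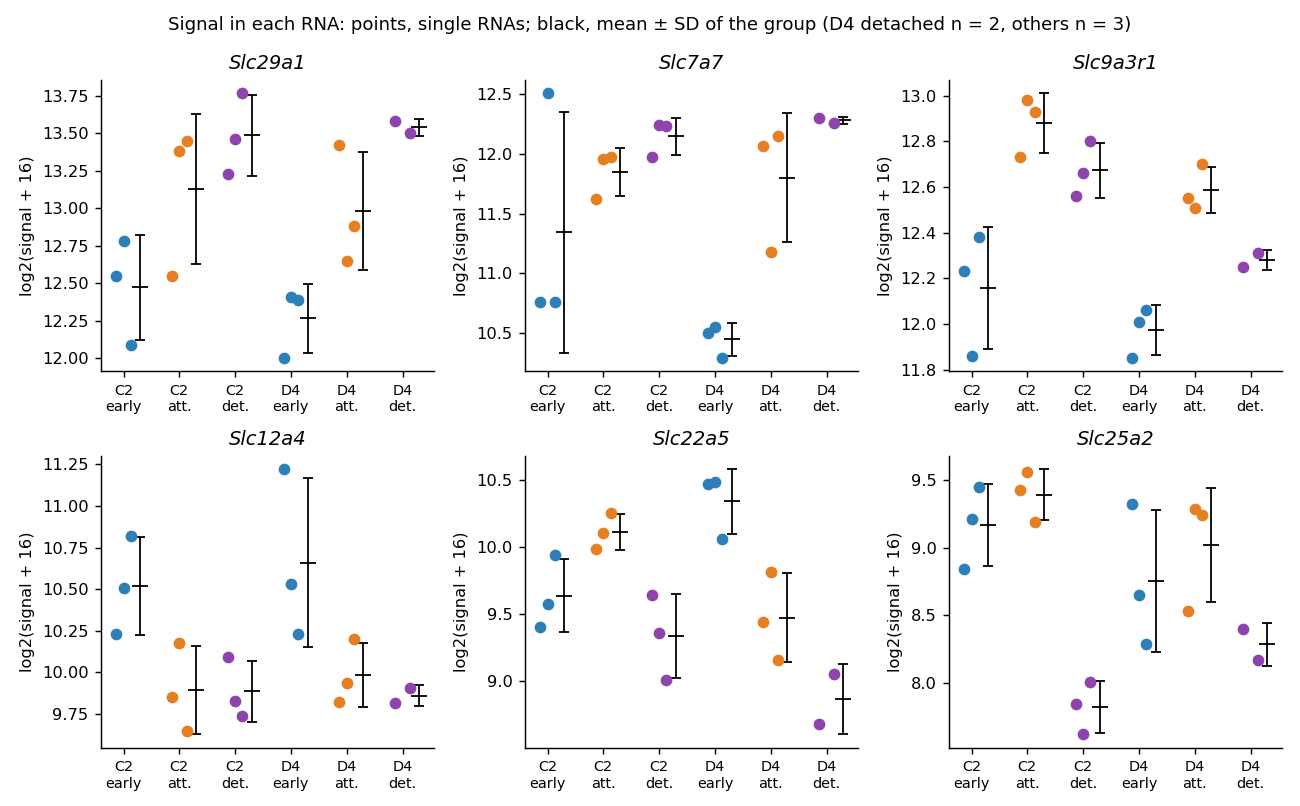
Level of the 6 SLC genes called in at least 1 comparison of the states, as log2(signal + 16), in each of the 17 RNAs by line and state (points), with the group mean ± SD in black. The y axes do not start at 0 and differ between panels. Slc12a4 shows no overlap of late with early RNAs, and the high early C2 point of Slc7a7 is replicate 2, at 12.51.

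By transported class, the called genes were spread over amino acids (1 of 22 tested genes), ions (2 of 18, of which Slc9a3r1 is a scaffold) and nucleosides (1 of 4). Among all tested probe sets 3.38% were called. None was called among the 29 mitochondrial carriers, 22 metal carriers, 17 sugar carriers, 10 carriers of vitamins, choline and haem, 9 of organic ions and drugs, or the smaller classes. These counts use the brightest probe set of each gene. They do not cover the genes left out at the start, among them the glucose transporters Slc2a1 and Slc2a3. A second probe set of the mitochondrial carrier Slc25a36 was called as lower in late minus early, at -0.92 (limma adjusted p = 0.0367). It was also called in detached minus early, at -0.98 (adjusted p = 0.0499). The brightest probe set of Slc25a36, which was not called, had levels of 12.03 to 12.50 in early and 11.74 to 12.14 in late C2 cells. In D4 its levels were 12.39 to 13.17 in early and 12.05 to 12.43 in late cells. A probe set of this gene on MOE430B gave 0.026 in late minus early (adjusted p = 0.971). On that array some early and no late RNAs were from a second chip lot. At an unadjusted p under 0.05 the mitochondrial carriers had 3, the sugar carriers 2, the organic ion carriers 2 and the metal carriers 0. The median late minus early difference was 0.011 for amino acid carriers, -0.067 for ions, -0.12 for metals, -0.054 for mitochondrial carriers and -0.17 for sugar carriers. Of the sugar carriers 13 of 17 and of the metal carriers 15 of 22 had a difference below 0, against 94 of the 154 SLC genes. Above 0 were 48.5% of all tested probe sets.

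**Figure D2:**
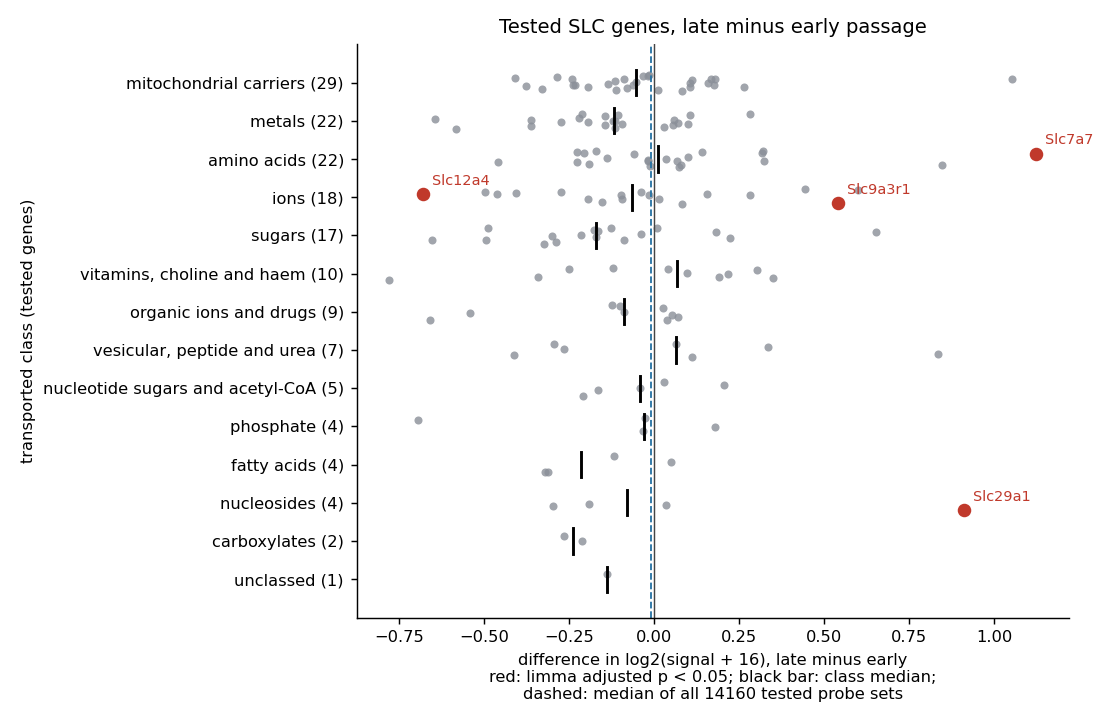
Late minus early difference in log2(signal + 16) of the 154 tested SLC genes, 1 point per gene, by transported class, with class medians as black bars and the median of all 14160 tested probe sets as a dashed line. The called genes Slc29a1, Slc7a7, Slc9a3r1 and Slc12a4 are red, and all other points lie between -0.78 and 1.05.

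Within families with at least 4 tested members, the gene with the largest late minus early difference was usually not called. In family 25, the mitochondrial carriers, it was Slc25a14, a brain-enriched relative of the uncoupling proteins, at 1.05 (SE 0.389, adjusted p = 0.165). Slc25a14 was above the array median only in late RNAs, so it passed the filter only through the group where it was higher. In family 2, the facilitated glucose transporters, it was the insulin-regulated Slc2a4, at -0.66 (SE 0.337, adjusted p = 0.323). All 4 tested genes of that family had differences below 0, with a median of -0.27. Slc2a1 and Slc2a3 were left out at the start, so these values do not describe the whole glucose transporter family. Families 7 and 22 and that of Slc38a3 also lack genes left out at the start. In family 4 it was the anion exchanger Slc4a3 at 0.60, in family 5 Slc5a4b, a relative of the sodium-glucose cotransporters, at 0.65, and in family 6 the glycine transporter Slc6a5 at -0.46. Slc5a4b, too, was above the array median only in late RNAs. The fatty acid transport protein Slc27a1 had -0.32, the endoplasmic reticulum glucose-6-phosphate transporter Slc37a4 -0.49 and the glutamine transporter Slc38a3 -0.23. The zinc exporter Slc30a4 had -0.36, the zinc importer Slc39a1 -0.36 and Slc35a5, of the nucleotide sugar transporter family, -0.21. The adjusted p-values of these last 9 genes ran from 0.211 to 0.733. In families 7, 12 and 22, Slc7a7, Slc12a4 and Slc22a23 led.

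Transporters of common nutrients and ions were also followed as a set of 24 genes, of which 20 were on the array under the rule and 18 were tested. Slc29a1 was the 1 called, and the other 17 had late minus early differences from -0.36 to 0.32, each with a 95% interval that included 0. For 16 of the 17 the interval lay within 1 log2 unit of 0, so larger changes of these averages were outside their intervals. The exception was Slc1a4, the ASCT1 neutral amino acid exchanger, at 0.32 with an interval from -0.53 to 1.17. The glutamine and neutral amino acid exchanger Slc1a5 had 0.32 (interval -0.15 to 0.79). Slc3a2, the heavy chain that Slc7a7 needs, had 0.066 (-0.28 to 0.41), the arginine carrier Slc7a1 0.079 (-0.55 to 0.70) and the glutamine carrier Slc38a2 -0.17 (-0.56 to 0.22). The creatine transporter Slc6a8 had -0.19 (-0.42 to 0.036).

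Among mitochondrial carriers of that set, the ADP/ATP carriers Slc25a4 and Slc25a5 had -0.088 (interval -0.42 to 0.24) and -0.24 (-0.51 to 0.025), and the acylcarnitine carrier Slc25a20 had 0.26 (-0.13 to 0.66). For iron, the importer Slc11a2 had 0.056 (-0.25 to 0.37) and the exporter Slc40a1 -0.15 (-0.69 to 0.40). The sodium-potassium-chloride cotransporter Slc12a2 had 0.080 (-0.27 to 0.43), the CMP-sialic acid carrier Slc35a1 0.028 (-0.25 to 0.31), the phosphate carrier Slc20a1 -0.032 (-0.39 to 0.33) and the folate carrier Slc19a1 -0.12 (-0.59 to 0.34). The cystine exchanger Slc7a11 and the zinc exporter Slc30a1 were too dim to be tested.

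**Figure D3:**
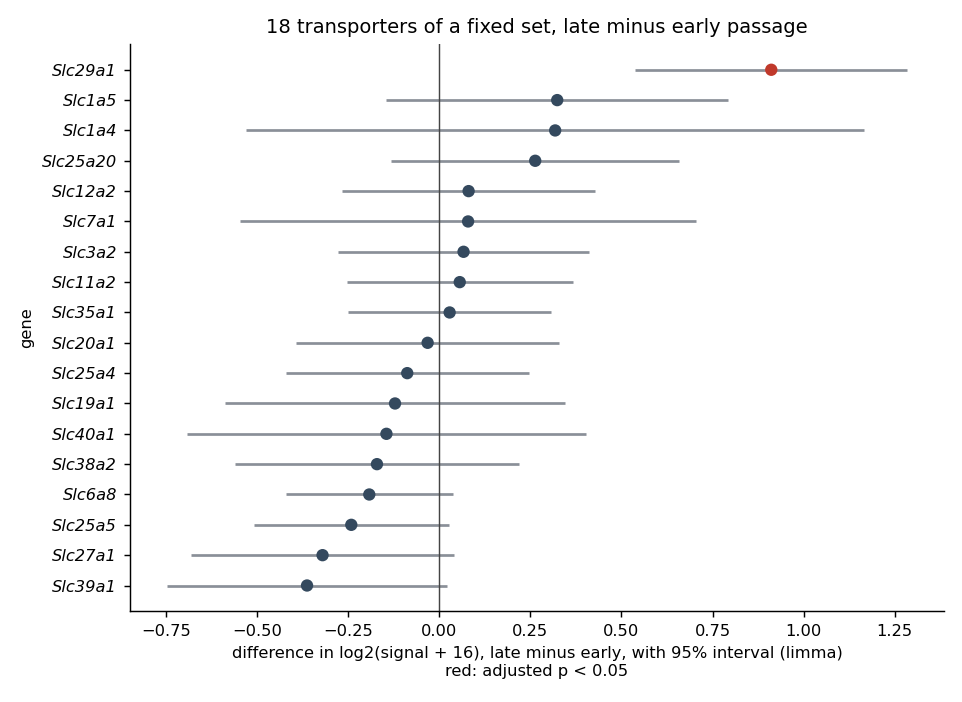
Late minus early difference in log2(signal + 16) of the 18 tested genes of the set, with 95% intervals from limma. Slc29a1 is called (red), and the intervals of the other 17 include 0.

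The 2 late states were then compared with early passage separately, with the early RNAs shared. In attached minus early, Slc9a3r1 alone was called, 0.649% of the tested SLC genes against 0.177% of all tested probe sets. The largest negative moderated t belonged to Slc12a4 at -0.65, Slc22a23, a member of the organic ion family, at -0.58 and the choline transporter-like Slc44a2 at -0.43, with adjusted p-values of 0.16, 0.271 and 0.348. Slc7a7 at 0.93 (adjusted p = 0.196) and Slc29a1 at 0.68 had the largest positive ones after Slc9a3r1. No fluidics run held attached and early RNAs of the same line, so no within-run value of this difference could be had. In D4 they also differed in day, and run and state cannot be told apart there.

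In detached minus early 5 SLC genes were called, 3.25%, where 4.63% of all tested probe sets were. Slc29a1 and Slc7a7 rose, and Slc12a4, Slc22a5 and Slc25a2 fell. Slc9a3r1, at 0.41 (SE 0.124, adjusted p = 0.0728), was not called. Slc22a5 encodes the carnitine transporter OCTN2, which brings in the carnitine needed for fatty acid import into mitochondria. Slc25a2 encodes a mitochondrial ornithine carrier.

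In C2 the Slc22a5 level was 9.40, 9.57 and 9.94 in early, 9.98, 10.10 and 10.25 in attached and 9.64, 9.36 and 9.01 in detached cells. In D4 it was 10.47, 10.48 and 10.06 in early, 9.44, 9.81 and 9.15 in attached and 8.68 and 9.05 in detached cells. In D4 all 5 late RNAs lay below the 3 early RNAs, while in C2 the attached RNAs lay above and the detached RNAs among the early ones or below. Detached minus early was -0.89 (SE 0.172, adjusted p = 0.00925), a 1.85-fold lower level, and was called in 16 of the 17 fits without 1 RNA, all but that without D4 detached replicate 1. Its second probe set gave -0.50 (adjusted p = 0.298), and the mean of both gave -0.70 (adjusted p = 0.0674), which was not called. Late minus early was -1.17 in D4 (SE 0.207, adjusted p = 0.0195) and 0.087 in C2 (SE 0.199, adjusted p = 0.93). The D4 call was lost without D4 early replicate 1, without D4 detached replicate 1, with no filter and with the mean of both probe sets, at -0.73, and the second probe set alone gave -0.28 in D4 (adjusted p = 0.694). The difference between the lines in that change was -1.26 (SE 0.287, unadjusted p = 0.00059 and adjusted p = 0.519 by limma), so it did not pass the test over all probe sets.

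Slc25a2 was called as lower in detached cells both against early and against attached cells, over the mean of the lines. In C2 its level was 8.84, 9.21 and 9.45 in early, 9.43, 9.56 and 9.19 in attached and 7.85, 7.62 and 8.01 in detached cells. In D4 it was 9.32, 8.65 and 8.29 in early, 8.53, 9.28 and 9.24 in attached and 8.40 and 8.17 in detached cells. In C2 the detached RNAs lay below all others, and in D4 they lay below the attached RNAs and overlapped with early replicate 3. The gene was above the array median only in C2 early replicate 3 and C2 attached replicate 2, and below it in every detached RNA. It thus passed the filter only through groups in which it was then called higher. Detached minus early was -0.90 (SE 0.206, adjusted p = 0.0249) and detached minus attached was -1.15 (SE 0.206, adjusted p = 0.0222), a 2.22-fold lower level. The first call was lost in 6 of the 17 fits without 1 RNA, with no filter and with fluidics run as a fixed block. The second was lost in 7 of the 17 fits without 1 RNA, with no filter, with the replicate block and when the arrays of C2 attached replicate 1 and D4 attached replicate 3 were left out together (-1.08, adjusted p = 0.117).

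Detached and early RNAs shared fluidics run 2 in C2 and run 4 in D4, with 2 RNAs of each state per run. Within these runs detached minus early was 0.95 in C2 and 1.33 in D4 for Slc29a1, 0.60 and 1.76 for Slc7a7, -0.58 and -1.01 for Slc12a4, -0.30 and -1.61 for Slc22a5, and -1.21 and -0.70 for Slc25a2. The direction was the same in both runs for each of these 5 genes. They were chosen by their call in a fit that held these same RNAs, so this is no separate support. With the run as a block in the fit, 2 of the 5 were called, Slc29a1 at 1.14 (adjusted p = 0.0419) and Slc22a5 at -0.96 (adjusted p = 0.0261).

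The 2 late states differed in the called gene Slc25a2 alone, 0.649% of the SLC genes, where 0.466% of all tested probe sets were called. An unadjusted p under 0.05 was reached by 29 of the 154, 18.8%, and by 15.0% of all tested probe sets. The differences were mostly below 0, with 115 of 154 and a median of -0.209, and the median of all tested probe sets was -0.018. Above 0 were 47.9% of all tested probe sets. The median was -0.092 over the 54 SLC genes that passed a filter at the 75th percentile of the array, where that of all probe sets was 0.055. Without a filter it was -0.27 over 238 genes, against -0.12 for all probe sets. Over all 154 it was -0.12 without the 2 arrays that stood apart, against -0.025 for all probe sets. After quantile normalization it was -0.099, where the median of all probe sets was 0.033. In the fits without 1 RNA it ran from -0.23 without C2 attached replicate 3 to -0.16 without C2 attached replicate 1. With the feeder covariate it was -0.023, against -0.030 for all probe sets. Class medians were -0.30 for sugars, -0.26 for amino acids, -0.19 for metals, -0.17 for ions and -0.054 for mitochondrial carriers. Single genes beside Slc25a2 were not called. The noradrenaline transporter Slc6a2 at -0.70 (adjusted p = 0.0899) and Slc22a5 at -0.69 (adjusted p = 0.105) had the next lowest moderated t. Slc37a3 at 0.53, Slc4a3 at 0.76 and the choline transporter-like Slc44a1 at 0.37 had the highest, with adjusted p-values of 0.248 to 0.322.

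**Figure D4:**
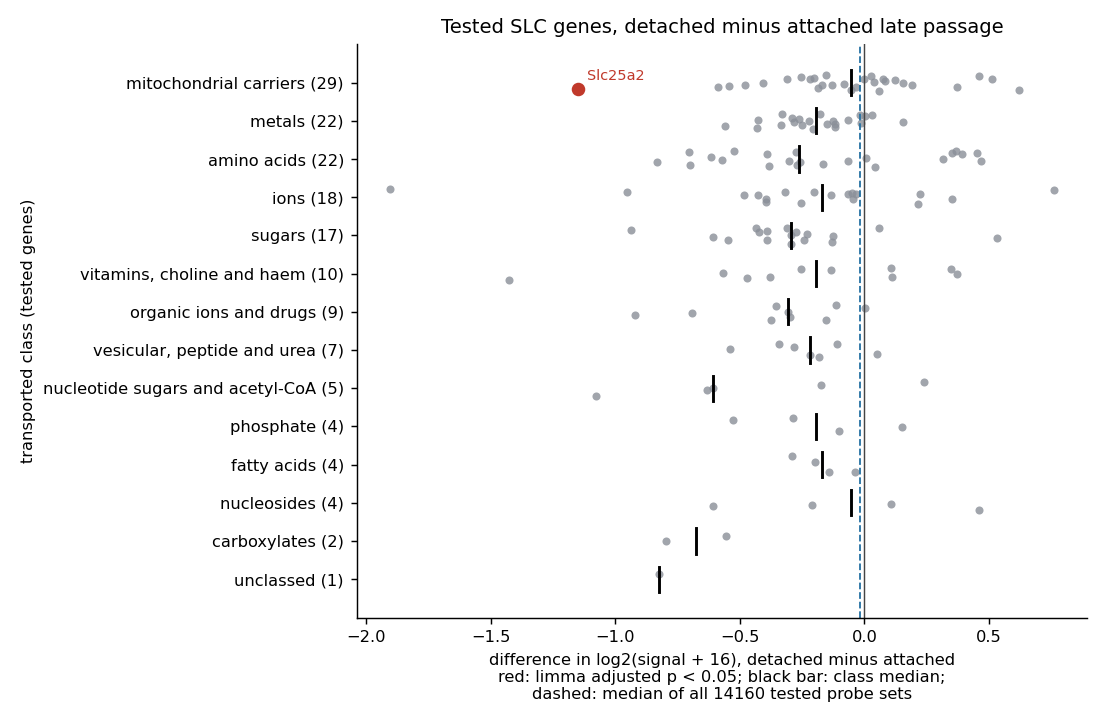
Detached minus attached difference in log2(signal + 16) of the 154 tested SLC genes by transported class, with class medians as black bars and the median of all tested probe sets as a dashed line. Slc25a2 is called (red), and most points lie left of 0.

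Set against all tested probe sets of the same RNA, the median level of the 154 SLC genes was 0.218 to 0.464 log2 units lower in early, 0.191 to 0.598 lower in attached and 0.383 to 0.585 lower in detached cells. The ranges of all 3 states overlapped, and D4 attached replicate 1 had the lowest value of the 17.

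**Figure D5:**
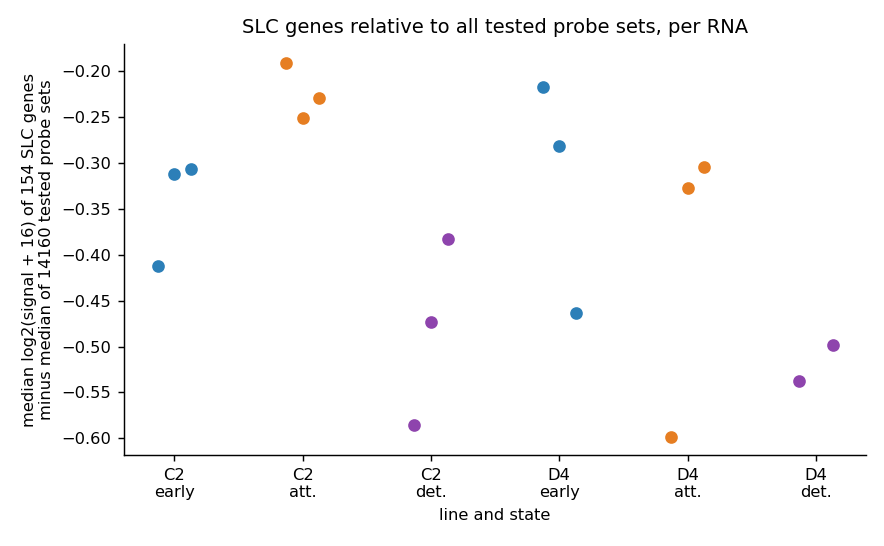
Median log2(signal + 16) of the 154 tested SLC genes minus the median of all 14160 tested probe sets, in each of the 17 RNAs by line and state. The detached RNAs lie from -0.585 to -0.383 and overlap with both other states.

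The lines C2 and D4 were compared over the equal mean of the 3 states. All MOE430A arrays of C2 and of attached D4 cells were hybridized on day 1. Those of early and detached D4 cells were hybridized on day 2. In these 2 states line and day cannot be told apart, here or in the comparison of changes between the lines. No SLC gene was called by limma, nor any of all tested probe sets (0.0%), and 10 SLC genes, 6.49%, had an unadjusted p under 0.05, as had 6.12% of all tested probe sets. No other setting tried called an SLC gene. Of all tested probe sets, 1 was called without D4 attached replicate 1 and 2 without D4 detached replicate 3. The lowest D4 minus C2 differences by moderated t were those of Slc6a18, of the neurotransmitter and amino acid transporter family, at -1.25 (SE 0.31), Slc9a3r1 at -0.29 and the mitochondrial oxoglutarate carrier Slc25a11 at -0.29. The highest were those of the mitochondrial pyrimidine nucleotide carrier Slc25a36 at 0.40, Slc35a1 at 0.23 and the mitochondrial NAD carrier Slc25a51 at 0.19. Their adjusted p-values were 0.775 to 0.836.

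The change from early to late passage was also compared between the lines. In C2 alone no SLC gene was called by limma, where 0.0494% of all tested probe sets were, and 18 of 154, 11.7%, had an unadjusted p under 0.05, as had 10.4% of all tested probe sets. In D4 alone Slc22a5 and Slc7a7 were called, 1.3%, where 1.12% of all tested probe sets were. The test of the difference between the lines called no SLC gene and 0.00706% of all tested probe sets, with 18 SLC genes at an unadjusted p under 0.05, 11.7%, as were 7.96% of all tested probe sets. After Slc22a5 its lowest moderated t belonged to the UDP-N-acetylglucosamine carrier Slc35a3 at -1.37 (SE 0.363) and the zinc carrier Slc39a11 at -0.87. The highest belonged to the monocarboxylate carrier Slc16a8 at 1.66 (SE 0.673), the proton-coupled folate carrier Slc46a1 at 1.08 and Slc45a3 at 0.70. Their adjusted p-values were 0.519 to 0.629. The highest moderated t within C2 after Slc9a3r1 and Slc29a1 was that of the peptide carrier Slc15a2, at 1.88 (SE 0.553, adjusted p = 0.187), with early levels of 6.21, 8.87 and 6.46 and late levels of 8.63 to 9.65. Slc15a2 was above the array median only in late RNAs, so it passed the filter only through the state where it was higher. Within D4 the lowest after Slc22a5 were those of Slc22a23 at -0.99 and Slc6a2 at -0.70 (adjusted p = 0.0814 and 0.101).

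Genes that act with the carriers were read from a list of partners and regulators, 19 of 21 on the array tested. Late minus early called 2 of them. Txnip, which restrains glucose uptake, rose by 0.82 (SE 0.176, adjusted p = 0.0208), and Nedd4l, a ubiquitin ligase of membrane transporters, fell by 0.73 on the log2 scale (SE 0.131, adjusted p = 0.00866). Bsg, a chaperone of monocarboxylate carriers, had -0.12 and the amino acid response factor Atf4 -0.042, and neither was called. Of 45 tested genes for other membrane transport proteins, the ABC transporters, P-type ATPases, aquaporins and Slco carriers, 0 were called in late minus early, and their median was -0.0075.

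Markers of other cell types differed between the same groups. In late minus early, 15 of the 22 tested feeder genes and 2 of 6 tested trophoblast genes (Krt8 and Krt18) fell, 4 of 10 tested primitive endoderm genes rose, 1 of 10 ES cell genes (Sox2) rose and 0 of 3 neural genes were called. The summed signal of the trophoblast list was 10723 to 119198 in early, 7711 to 11146 in attached and 5478 to 7105 in detached cells. That of the endoderm list was 4680 to 7395, 9271 to 14800 and 8784 to 11508, and that of the neural list 1792 to 3491, 1877 to 3988 and 1665 to 2273. With the mean level of the feeder list as a covariate, no SLC gene was called in any comparison, and neither was any of the 14160 tested probe sets in late minus early. In that fit late minus early was 0.86 (SE 0.527) for Slc29a1, 0.57 (SE 0.704) for Slc7a7, 0.90 (SE 0.293) for Slc9a3r1 and -0.55 (SE 0.466) for Slc12a4, with adjusted p-values of 0.997 to 0.999. The part of these cell types in the SLC differences was not tested further.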

How the data were processed

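The signal intensity of each probe set was deposited by the authors as a MAS5 value, per the submitters' processing notes, with no version and no detection calls in those notes or the files used here. MAS5 scales each array separately, and no further scaling was applied. Arrays had 22690 probe sets on MOE430A, of which 20393 had 1 gene symbol, 691 several and 1606 none in the platform annotation; 20364 matched the RefSeq gene table of GRCm38.p6. Of 89 SLC genes with several probe sets, the brightest by mean log2(signal + 16) was used; of the 71 other tested probe sets, 42 had the same sign in late minus early. Probe sets above their array's median on at least 2 of 17 arrays were fitted in R 4.3.3 with limma 3.58.1, with 1 coefficient per line and state over 14160 probe sets, and called at a Benjamini-Hochberg adjusted p under 0.05. On data simulated for late minus early over 14160 probe sets, 73% of changes of 1 log2 unit and 98% of changes of 2 were recovered. The number of arrays limits the precision: the median half-width of the 95% interval for late minus early was 0.384 log2 units over the 154 tested SLC genes. Fluidics runs are arrays of 1 station logged close together, per the file headers.

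The members, families and lists were chosen with earlier results of these data known. Named genes were all called genes; where under 6 were called in a comparison, also the 3 highest and 3 lowest moderated t; the largest late minus early difference in each family with at least 4 tested genes; and a set of 24 transporters. Alternatives were pseudocounts of 1 and 64, no filter and a 75th percentile filter, quantile normalization, array weights, a block for replicate number or fluidics run, a feeder covariate, the mean of all tested probe sets of a gene, and leaving out RNAs.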

Additional observations from a re-analysis of the deposited data

How the results depend on the processing

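Counts of called SLC genes stayed within 1.5 times the reported ones for both pseudocounts, quantile normalization and a random block for fluidics run. No filter left 0 of 238 SLC genes called in attached minus early, 0 in detached minus attached and 1 in D4. Of all fitted probe sets 0.0265%, 0.212% and 0.186% were then called. The 75th percentile filter gave 0 of 54 SLC genes in detached minus attached and 1 in C2, with 1.05% and 1.44% of all fitted probe sets. Array weights gave 15 of 154 in detached minus early, 3 in detached minus attached, 3 in C2 and 5 in D4. Of all tested probe sets they called 12.5%, 2.95%, 1.24% and 1.96%. Leaving out both arrays that stood apart gave 0 in attached minus early, 8 in detached minus early and 0 in detached minus attached. The shares of all tested probe sets were 0.0424%, 5.68% and 0.247%. The mean of all tested probe sets of a gene gave 0 in attached minus early and 1 in D4, with shares of 0.17% and 1.1% among all features of that fit. With fluidics run as a fixed block, which could be fitted for detached minus early and within C2 (the latter added after seeing the data), detached minus early had 2. Of all tested probe sets 1.72% were called there. With the feeder covariate late minus early, attached minus early, detached minus early, detached minus attached and D4 had 0 each. Same-numbered RNAs deviated from their group means with correlations of -0.221 to 0.0728, so the numbers were not taken as pairs. With the replicate block, late minus early had 4 called, the same 4 genes, attached minus early had 0, detached minus attached 0 and D4 1. The shares of all tested probe sets were 3.04%, 0.127%, 0.445% and 1.04%. The causes of these moves were not tested.

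Leaving out each RNA in turn gave 2 to 6 called in late minus early (2 without C2 early replicate 3 or D4 early replicate 1, and 6 without D4 attached replicate 2 or D4 early replicate 3), 0 to 2 in attached minus early, 2 to 7 in detached minus early, 0 to 2 in detached minus attached, 0 to 2 in C2 and 0 to 3 in D4. Over these fits the share of all tested probe sets was 1.38% to 4.26% in late minus early and 0.0212% to 0.395% in attached minus early. It was 1.92% to 5.9% in detached minus early and 0.155% to 1.08% in detached minus attached. In C2 it was 0.0141% to 0.325% and in D4 0.0353% to 1.62%. Among genes that were not called, late minus early changed sign in some of these fits for Slc1a4 (-0.03188 to 0.5284), Slc3a2 (-0.02036 to 0.1389), Slc7a1 (-0.1591 to 0.2211), Slc25a4 (-0.2564 to 0.02767), Slc11a2 (-0.03997 to 0.1386), Slc40a1 (-0.3955 to 0.01638), Slc12a2 (-0.02846 to 0.2012), Slc35a1 (-0.05955 to 0.09936), Slc20a1 (-0.194 to 0.06786) and Slc19a1 (-0.2161 to 0.01973). Under array weights Slc7a1 was at -0.03782 and Slc19a1 at 0.03059, and without both arrays that stood apart Slc7a1 was at -0.05923 and Slc20a1 at 0.02864. With the mean of probe sets Slc25a5 was at 0.04606, Slc11a2 at -0.0271 and Slc19a1 at 0.00867. With the feeder covariate late minus early turned to 0.2094 for Slc22a23 (0.05483 in D4), 0.4453 for Slc2a4, 0.2748 for Slc30a4, 0.1128 for Slc37a4, 0.1854 for Slc38a3, 0.3288 for Slc39a1, 0.5637 for Slc25a4, 0.09827 for Slc25a5, -0.6865 for Slc12a2, -0.1389 for Slc35a1 and 0.01911 for Slc19a1, and detached minus attached to -0.1992 for Slc37a3.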
